A study of Mus musculus with 30 samples.

Results

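The 16 left ventricles of the antibody study, of 30 in the series, were placed in order by how much RNA of 5 atrial marker genes they held. The 5 highest hearts were compared with the 8 lowest, and the 3 hearts between the highest and the lowest were not compared. The score of a heart was the mean of log2(CPM + 1) over Sln, Myl7, Myl4, Bmp10 and Mybphl, where CPM is the count scaled to the library total, and hearts were chosen by this score alone, that is by measured values. The mice were male wild type C57BL6 animals (C57BL6J in the study's methods), 12 weeks old at the start, each giving 1 heart. Of these 8 received 3D6, an antibody that neutralises amyloid beta 42 (Aβ42), while 8 received a control antibody. The deposited design states that all of these mice had also been given Aβ42, whereas the study's methods describe a high fat diet with weekly antibody injections and no Aβ42, with an IgG isotype antibody as control. The other 14 hearts came from the peptide study, in which 7 wild type male mice were injected daily with Aβ42 and 7 with its scrambled form ScrAβ42. The labels put the start at 12 weeks of age, whereas the study's methods give a range with 12 weeks as its upper end. Hearts were ranked on counts of the same libraries, so the score genes are given as a description with no test, and a p-value for another gene measures only how that gene goes with the score among these mice.

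Atrial and ventricular muscle cells use different members of the same protein families. Atrial cells carry the light chains Myl7 and Myl4 in place of Myl2 and Myl3, restrain the calcium pump with sarcolipin (Sln), and store atrial natriuretic peptide (Nppa) in secretory granules. In the adult ventricle these genes are nearly silent, and Nppa returns there under load. Bmp10 is a growth factor made in the right atrium of the adult heart.

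The score ran from 0.175 to 7.40 over the 16 hearts. Control antibody mouse 15 had the highest score, 7.40, followed by 3D6 mice 20, 7, 12 and 21 with 5.99, 5.19, 4.76 and 4.08, and values of the 5 high hearts are given in this order throughout. The 3 hearts between were control antibody mouse 11 with 3.97, control antibody mouse 19 with 2.08 and 3D6 mouse 16 with 0.812. The 8 low hearts lay between 0.175 and 0.652. The step between the lowest high heart (4.08) and the highest heart left out (3.97) was small, as was that between the lowest heart left out (0.812) and the highest low heart (0.652).

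**Figure D1:**
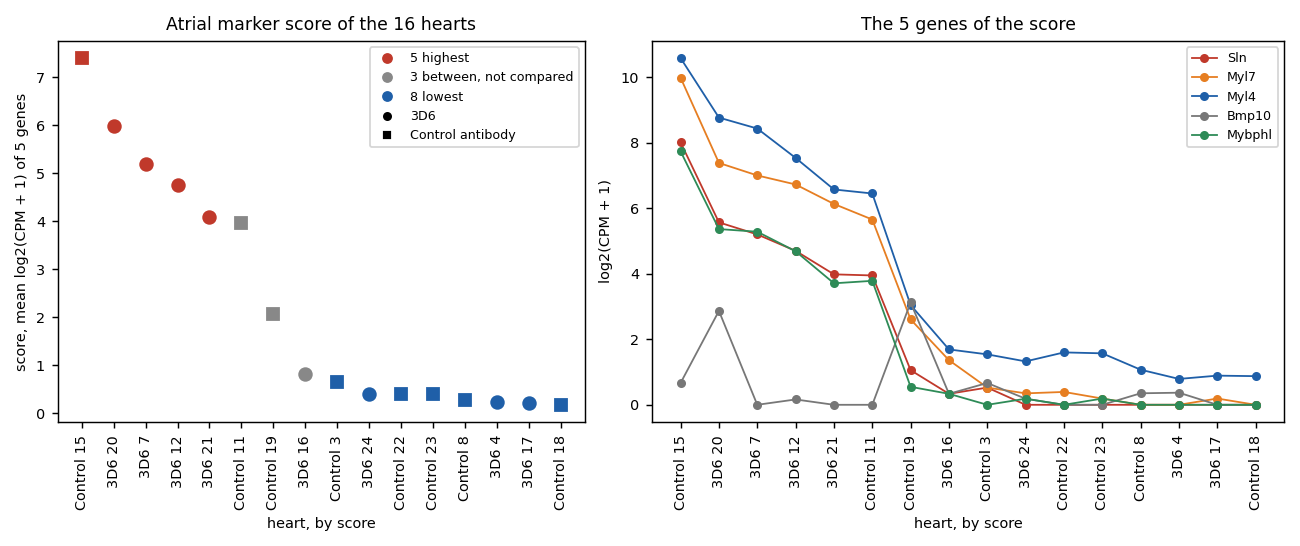
Left, the atrial marker score of each of the 16 hearts (mean log2(CPM + 1) of 5 genes), in descending order, with circles for 3D6 and squares for the control antibody. Right, log2(CPM + 1) of each score gene in the same order of hearts. Sln, Myl7, Myl4 and Mybphl fall together from control antibody mouse 15 down, while Bmp10 is above 2 on this scale only in 3D6 mouse 20 and control antibody mouse 19.

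Myl4, scaled here and below by TMM normalization, stood at 1410, 419, 336, 188 and 95.3 CPM in the high hearts and at 0.8 to 2.03 CPM in the low hearts. Myl7 stood at 931, 160, 124, 107 and 69.9 CPM against 0 to 0.469 CPM. Sln stood at 236, 44.7, 34.8, 25.4 and 15 CPM and Mybphl at 195, 38.7, 36.9, 25.2 and 12.2 CPM, in the same order of hearts. Bmp10 did not follow the other score genes. It had 43 counts in 3D6 mouse 20 and 50 in control antibody mouse 19, a heart of the middle, but only 4 in control antibody mouse 15 and at most 4 in any of the other 13 hearts.

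Of the 5 high hearts 4 came from 3D6 mice, against 3 of the 8 low hearts (two-sided Fisher's exact test, p = 0.266). The antibody group was a covariate in the fits below. Total counts per heart were 6807977 to 8310478 in the high and 6397192 to 7302207 in the low hearts. The share of mitochondrial counts was 32.4% ± 2.10 (SD, n = 5) in the high and 32.6% ± 4.22 (SD, n = 8) in the low hearts (two-sided exact permutation test, p = 0.934). The share of the 10 most counted genes (p = 0.845), the number of genes detected (p = 0.511), the total count (p = 0.609) and the share of nuclear noncoding genes (10.1% against 11.7%, p = 0.163) gave no difference beyond the spread between hearts in the same exact permutation test. No pair of hearts within an antibody group agreed within counting noise, as a library deposited again would (smallest chi-square over its degrees of freedom, 3.47).

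Genes that averaged 10 or more counts over the 16 hearts entered the quasi-likelihood test of edgeR, and a gene is called where its p-value, adjusted over all genes tested, is under 0.05. Of 12142 genes other than the score genes, 52 were called (0.428%), of which 51 were higher (0.42%) and 1 was lower (0.00824%) in the high hearts. Of the 51 genes 36 averaged 10 or more counts in the low hearts as well. The other 15 passed the filter only through the high hearts and so had to differ. Those of them described below (Tmem163, Cilp2, Gm13054, Fgf12, Ppp1r1b, Rxfp1, Adcy1 and Upk3b) are given by their counts, with no test. The counting intervals beside these counts pool the reads of a group and leave out the spread between hearts. They are no test of a difference. The median log2 fold change of all genes tested was -0.01. The 5 high hearts lay above all 8 low hearts in 22 of the genes tested (0.181%), and 20 of these 22 were among the 51, while they lay below all 8 in 3 genes (0.0247%). Control antibody mouse 15 had the highest CPM of all 16 hearts in 50 of the 51 genes, and it was also the only control antibody heart among the 5 high ones. Without this mouse the antibody covariate leaves the comparison to the 4 high and 3 low 3D6 hearts, and the 5 low control antibody hearts add only to the estimate of spread. The loss of this mouse's values and the loss of the control antibody contrast therefore cannot be told apart. In this fit 7 genes were called, and of the 36 genes these were 2, Dkk3 and Nppa. Within the 3D6 hearts alone, 4 high against 3 low, 5 genes were called, and of the 36 these were Dkk3, Nppa and Mfap4, a microfibril-associated glycoprotein.

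**Figure D2:**
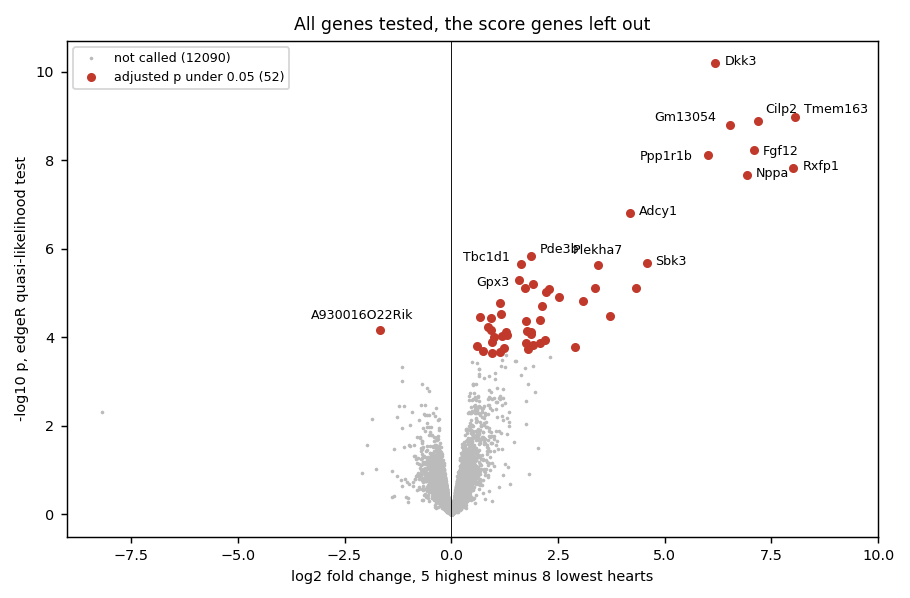
Log2 fold change (5 highest minus 8 lowest hearts, x axis) against -log10 of the edgeR p-value (y axis) for the 12142 genes tested, the score genes left out. The 52 genes with an adjusted p under 0.05 are in red, 51 of them to the right of 0, and all others are in grey.

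Genes of atrial secretion were among those higher. Of the 10 genes on this list 7 could be tested, 3 were higher and 0 lower, and their median log2 fold change was 1.48. Nppa, the precursor of atrial natriuretic peptide, was at 3820, 909, 883, 490 and 140 CPM in the high hearts. In the low hearts it ran from 0.961 to 80.9 CPM with a median of 12.9. The groups did not overlap, although the low hearts themselves spread widely, control antibody mouse 23 alone standing at 80.9 CPM and the next at 25.1. The log2 fold change of Nppa was 6.93 (standard error 0.66, adjusted p = 2.2e-05). Dkk3, a secreted glycoprotein of the Dickkopf family (chromosome 7, 112116017 to 112159057), was at 190, 49.2, 62.2, 31.1 and 14 CPM against 0.32 to 3.37 CPM with a median of 1.45. Its log2 fold change of 6.19 (standard error 0.39, adjusted p = 1.58e-07) had the smallest p outside the score genes, and every high heart exceeded every low one. Pam, the enzyme that amidates peptide hormones and a major membrane protein of atrial granules (chromosome 1, 97795114 to 98095646), was at 2500, 708, 907, 720 and 411 CPM against 88.6 to 371 CPM with a median of 258. The groups again did not overlap (log2 fold change 2.14, standard error 0.35, adjusted p = 0.00858). Without control antibody mouse 15 the log2 fold change was 6.90 for Nppa and 5.42 for Dkk3, both still called, and 1.38 for Pam, which was not (adjusted p = 0.763). Corin, the protease that activates the Nppa precursor, was at 115 to 171 CPM in the high and 90.3 to 239 CPM in the low hearts, with a log2 fold change of 0.02 (adjusted p = 0.999).

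Nppb, which encodes brain natriuretic peptide and lies next to Nppa on chromosome 4, did not separate the hearts. It was at 63.8, 35.9, 42.6, 28.3 and 56.2 CPM in the high hearts against 1.70 to 77.5 CPM with a median of 28.1 in the low hearts, and the highest value of all, 82.2 CPM, was in control antibody mouse 11. Its log2 fold change was 1.48 (standard error 0.59, adjusted p = 0.955), and it had an unadjusted p of 0.0239. Gm13054, an antisense gene from 148001091 to 148004014 on the minus strand of chromosome 4, overlaps Nppa (148000722 to 148002079, plus strand, GRCm38). It was at 83.4, 18.6, 17.4, 10.6 and 4.65 CPM against at most 1.91 CPM, with 993 counts over the high and 29 over the low hearts, a ratio of 51.2 scaled to library size (95% counting interval 35.4 to 76.9). Of the 993 counts 619 came from control antibody mouse 15. The libraries mark strand, but whether strand was used in the counting is not given in the sources used here. Where the genes overlap, reads of the antisense gene therefore cannot be told apart from reads of Nppa. How many of its counts fall in that stretch was not examined.

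The window before the start of Nppa is shown because this gene had the largest fold on the secretory list, and that of Sbk3 because the kinases Sbk3 and Sbk2 are neighbours on chromosome 7 and were both called. Each run is the 250 bases before the RefSeq start (GRCm38.p6), read 5′ to 3′ along the gene, for Nppa at chr4:148000472-148000721 on the plus strand and for Sbk3 at chr7:4970962-4971211 on the minus strand. The GENCODE gene of Sbk3 starts further upstream than the RefSeq gene, so that 207 of the 250 bases lie inside it, whereas both annotations start Nppa at the same base. Capitals mark a match, on either strand, to 4 short motifs, AGATAA for GATA factors, AGGTGT for T-box factors, CAAGTG for NKX2-5 and AGGTCA for COUP-TF factors such as Nr2f2.
Nppa: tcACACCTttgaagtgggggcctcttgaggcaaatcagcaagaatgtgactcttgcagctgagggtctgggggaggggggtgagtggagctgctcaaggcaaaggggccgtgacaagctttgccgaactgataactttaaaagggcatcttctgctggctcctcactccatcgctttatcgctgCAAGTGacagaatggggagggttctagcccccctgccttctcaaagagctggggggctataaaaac
Sbk3: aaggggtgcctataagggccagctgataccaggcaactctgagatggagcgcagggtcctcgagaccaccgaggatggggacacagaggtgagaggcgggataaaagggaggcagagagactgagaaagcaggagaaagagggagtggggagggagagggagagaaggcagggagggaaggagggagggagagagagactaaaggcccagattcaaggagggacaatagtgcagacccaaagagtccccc
Nppa held 1 T-box match on the opposite strand, 248 bases before the start, and 1 NKX2-5 match on the same strand, 66 bases before it. The Sbk3 window held none of these letters, nor did the same window of Sbk2. Among the 32851 promoters of the table, 9.99% held AGATAA, 11.8% AGGTGT, 11.6% CAAGTG and 14.0% AGGTCA. Of the 51 genes called higher 33 matched a promoter by symbol, with 49 promoters in all, of which 4.08% held AGATAA, 12.2% AGGTGT, 12.2% CAAGTG and 18.4% AGGTCA. These matches are descriptions of the letters and not of binding.

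Of 12 genes on the atrial contractile and calcium list 9 could be tested, 4 were higher and 0 lower, and the median log2 fold change was 0.19. Sbk3, a kinase of the SH3-binding domain family found in heart (chromosome 7, 4965260 to 4971168), was at 240, 16.5, 44.8, 35.2 and 13.4 CPM against 0.274 to 8.4 CPM with a median of 3.34. Each high heart exceeded each low heart (log2 fold change 4.57, standard error 0.62, adjusted p = 0.00169). Sbk2, its neighbour (chromosome 7, 4940512 to 4964406), was at 77.8, 12, 21.1, 16.4 and 8.57 CPM against 3.68 to 10.2 CPM. Here 3D6 mouse 21 fell inside the range of the low hearts (log2 fold change 2.20, standard error 0.43, adjusted p = 0.0309). Myl1, an alkali light chain of fast muscle and of the embryonic heart, was at 106, 77.5, 30.7, 20.3 and 18.6 CPM against 11.4 to 20.9 CPM, with overlap in 3D6 mice 12 and 21 (log2 fold change 1.86, standard error 0.35, adjusted p = 0.0238). Stard10, a lipid transfer protein, was at 238, 65.6, 59.8, 46.6 and 29.5 CPM against 15.5 to 40.3 CPM, with 3D6 mouse 21 inside the low range (log2 fold change 1.87, standard error 0.35, adjusted p = 0.0256). The 5 other tested genes of the list, Actn1, Smpx, Rasl11b, Pde4d and Camk2d, had log2 fold changes between 0.03 and 0.19 and were not called. Without control antibody mouse 15 none of the 4 was called, with a log2 fold change of 2.87 for Sbk3, 0.83 for Sbk2, 1.25 for Myl1 and 0.90 for Stard10. Sbk3 kept its call without any other single heart. The call of Sbk2 was lost in 13 of 27 alternatives, among them those without control antibody mice 3, 8, 18, 22 or 23 or 3D6 mice 7 or 17, at log2 fold changes up to 2.23. That of Stard10 was lost in 10 of 27, also without control antibody mice 3, 18 or 23 or 3D6 mice 7 or 20 (up to 1.92), and that of Myl1 in 10 of 27, also without control antibody mice 3, 18 or 23 or 3D6 mice 4 or 20 (up to 1.85).

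Of 12 transcription factors of the atrium 11 were tested, 1 was higher and 0 were lower, with a median log2 fold change of 0.10. The one called was Nr2f2, the nuclear receptor COUP-TFII that holds atrial identity in mouse development. It was at 34.6 CPM in control antibody mouse 15 and at 14.9, 16.1, 15.5 and 15.8 CPM in the other high hearts, against 8.97 to 15.8 CPM with a median of 12.1 in the low hearts. The log2 fold change was 0.86 (standard error 0.16, adjusted p = 0.0208) and came to 0.55 without control antibody mouse 15, when the gene was no longer called, and 0.85 without 3D6 mouse 4, when it was not called either. Tbx5, a T-box factor of the atria and left ventricle, was at 68.9, 35.3, 49.4, 38.1 and 25.6 CPM against 16.8 to 39.5 CPM (log2 fold change 0.85, standard error 0.24, adjusted p = 0.293), and its log2 fold change was 0.40 without control antibody mouse 15. Hey2, Irx4 and other ventricular regulators are given below.

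Of 18 ion channel and connexin genes of atrial cells 16 were tested, 1 was higher and 0 were lower, with a median log2 fold change of 0.13. Cacna1h, a T-type calcium channel, was at 109, 37.6, 62.9, 28.9 and 16.4 CPM against 7.62 to 23.5 CPM with a median of 11.4. Only 3D6 mouse 21 lay inside the range of the low hearts (log2 fold change 2.07, standard error 0.37, adjusted p = 0.0151), and without control antibody mouse 15 the log2 fold change was 1.38 and the gene was not called. Gja5, the connexin of atrial muscle and the conduction fibres, was at 47.7, 5.21, 13.3, 9.89 and 3.78 CPM against 2.81 to 9.68 CPM, and its log2 fold change of 1.79 (standard error 0.45) gave an adjusted p of 0.172 and came to 0.54 without control antibody mouse 15. Kcnj3, a subunit of the channel through which acetylcholine slows the heart, was at 155, 59, 88.6, 81.6 and 38.2 CPM against 32.4 to 80.4 CPM (log2 fold change 0.74, adjusted p = 0.876), with a log2 fold change of 0.06 without that mouse. Kcna5, the channel of the ultrarapid potassium current, was at 9.62 to 21 CPM in the high and 13.5 to 22.5 CPM in the low hearts (log2 fold change -0.09, adjusted p = 0.999), and its log2 fold change was 0.02 with total count scaling and 0.14 without that mouse. Sinoatrial and conduction genes gave 0 calls by edgeR among 6 tested, 0 of them with an unadjusted p under 0.05, and Hcn4, the pacemaker channel, had a log2 fold change of -0.18 (adjusted p = 0.999), and of 0.03 without that mouse.

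Among the 12 protein-coding genes named by rule, Dkk3, Nppa, Sbk3, Pde3b, Tbc1d1 and Plekha7 were tested with 10 or more counts on average in the low hearts. The other 6, Tmem163, Cilp2, Fgf12, Ppp1r1b, Rxfp1 and Adcy1, were close to 0 there and are a description. Tmem163, a zinc transporter (chromosome 1, 127486546 to 127679548), was at 41, 5.49, 14, 5.49 and 2.18 CPM against 0 to 0.57 CPM, that is 502 counts over the high hearts and 5 over the low hearts. The ratio of these counts, scaled to library size, was 150 with a 95% counting interval of 63.9 to 464. Cilp2, a matrix protein first known from cartilage (chromosome 8, 69880369 to 69887687), was at 73.1, 3.94, 11.7, 8.18 and 2.91 CPM against 0 to 0.712 CPM, with 740 counts against 14 (ratio 79.0, interval 46.8 to 145). Fgf12, an intracellular FGF homologous factor that binds sodium channels, was at 41.2, 8.30, 9.48, 5.86 and 1.16 CPM against 0 to 0.427 CPM, with 488 counts against 9 (ratio 81.1, interval 42.4 to 178). In all 3 genes the groups did not overlap. Of the counts over the high hearts, 304 for Tmem163, 542 for Cilp2 and 306 for Fgf12 came from control antibody mouse 15.

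Ppp1r1b, a phosphatase inhibitor regulated by dopamine in the brain, was at 38.1, 3.52, 4.24, 5.74 and 2.18 CPM against 0 to 0.855 CPM, with 400 counts against 16 (ratio 37.4, interval 22.7 to 66.0). Rxfp1, the relaxin receptor, was at 13.5, 4.08, 2.69, 2.20 and 0.145 CPM, with 167 counts over the high hearts and 1 count over the low hearts. The ratio of these counts, scaled to library size, was 250 with a 95% counting interval of 44.2 to 9920. Adcy1, a calcium-stimulated adenylyl cyclase, was at 26.1, 3.24, 5.09, 5.62 and 0.727 CPM against 0.284 to 1.17 CPM, with 3D6 mouse 21 inside the low range and 304 counts against 38 (ratio 12.0, interval 8.52 to 17.2). Of the counts over the high hearts, 283 for Ppp1r1b, 100 for Rxfp1 and 194 for Adcy1 came from control antibody mouse 15. Pde3b, a phosphodiesterase that breaks down cAMP, was at 9.57, 2.95, 6.22, 3.54 and 3.34 CPM against 1.05 to 3.56 CPM. The high hearts of Pde3b overlapped the low ones in 3 mice (log2 fold change 1.87, standard error 0.25, adjusted p = 0.00129). Tbc1d1, a Rab GTPase-activating protein of glucose transporter traffic, was at 69.1, 22.7, 25, 20.6 and 16.1 CPM against 9.08 to 14.3 CPM without overlap (log2 fold change 1.63, standard error 0.22, adjusted p = 0.00169). Plekha7, an adherens junction protein, was at 40.6, 6.89, 9.05, 7.81 and 2.33 CPM against 0.545 to 3.28 CPM, again with 3D6 mouse 21 inside the low range (log2 fold change 3.43, standard error 0.47, adjusted p = 0.00169). Without control antibody mouse 15 none of Pde3b, Tbc1d1 and Plekha7 was called, and the log2 fold change was 1.85 for Pde3b, 1.02 for Tbc1d1 and 2.07 for Plekha7.

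The high hearts did not share these genes evenly. Of the 51 genes, control antibody mouse 15 stood above all 8 low hearts in 51, 3D6 mouse 7 in 48, 3D6 mouse 20 in 42, 3D6 mouse 12 in 37 and 3D6 mouse 21 in 25. Among the 3 hearts left out, control antibody mouse 11 did so in 30, control antibody mouse 19 in 5 and 3D6 mouse 16 in 4. Control antibody mouse 11, whose score was under that of 3D6 mouse 21, was thus above the low hearts in more genes than that mouse.

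**Figure D3:**
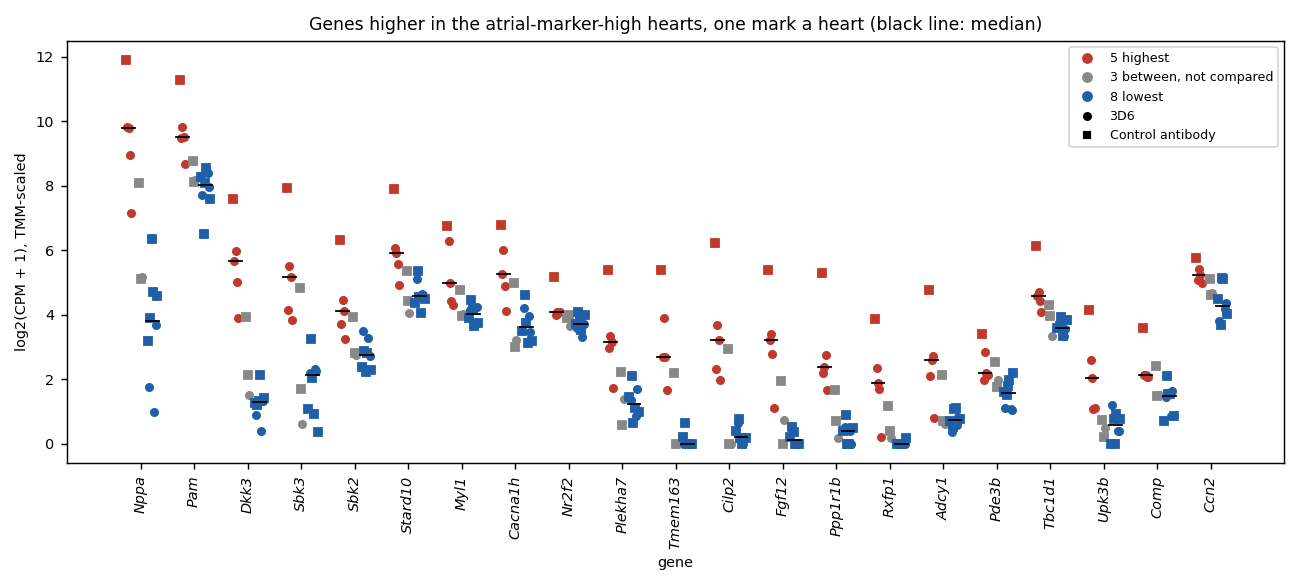
Log2(CPM + 1), TMM-scaled, of the 21 called genes named by rule, with 1 mark for each heart (circles 3D6, squares control antibody) and a black line at the median of the 5 high and of the 8 low hearts. The red square at the top of each gene is control antibody mouse 15, which is highest in all 21 genes, and for Nppa, Pam, Dkk3 and Sbk3 the red marks lie above every blue mark.

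Markers of other cells were read beside these genes. Of 5 mesothelial and epicardial genes that passed the filter 1, Upk3b, was called. It passed only through the high hearts and is given with no test. Upk3b, a uroplakin of the mesothelium, was at 16.8, 5.07, 3.11, 1.10 and 1.16 CPM against 0 to 1.28 CPM, so that 3D6 mice 12 and 21 lay within the low range, with 200 counts against 29 (ratio 10.3, interval 6.96 to 15.8). Of the 200 counts of Upk3b 125 came from control antibody mouse 15. The defining markers Msln and Lrrn4 were under the filter. Msln had 46, 7, 10, 5 and 4 counts and Lrrn4 27, 5, 9, 4 and 6 in the high hearts, against 0 to 4 for each in the low hearts. Muc16 had 25, 4, 9, 4 and 1 counts against 0 to 4. Gpm6a, a membrane glycoprotein, had a log2 fold change of 1.75 (unadjusted p = 0.00285, adjusted p = 0.309). The remaining genes that passed, Wt1, Aldh1a2 and C3, had log2 fold changes of 0.085, 0.15 and 0.13 and were not called. The median of the list was 0.15. The list of 14 summed to 89.8 to 195 CPM in the high and 89.2 to 157 CPM in the low hearts, mostly from the complement gene C3, and to 12.3 to 56.6 against 7.20 to 18.5 CPM without C3. Msln, Lrrn4 and Muc16 were each highest in control antibody mouse 15 and met the range of the low hearts in at least 1 high heart. Of 8 tested endocardial genes 0 were called by edgeR, 7 lay above 0 with a median log2 fold change of 0.29, and 3 had an unadjusted p under 0.05. Npr3, the clearance receptor of natriuretic peptides, had 417, 83, 144, 272 and 75 counts against 51 to 169, and Plvap, a protein of endothelial diaphragms, 365, 62, 151, 123 and 45 against 21 to 194. The list summed to 112 to 296 CPM (median 198) in the high and 119 to 272 CPM (median 144) in the low hearts. Of 6 tested valve genes 1 was higher. Comp, a cartilage matrix protein, was at 11.1 CPM in control antibody mouse 15 and at 3.17 to 3.40 CPM in the other high hearts, against 0.625 to 3.28 CPM, with overlap (log2 fold change 1.80, standard error 0.37, adjusted p = 0.0417). This call was lost in 14 of 26 alternatives, among them those without control antibody mice 8, 15, 18 or 23 or 3D6 mice 4, 7, 12, 20, 21 or 24, at log2 fold changes of 1.08 to 1.96. Wif1, a secreted inhibitor of Wnt signalling on the same list, was at 0.27, 4.08, 2.40, 4.27 and 1.02 CPM against 0.548 to 7.04 CPM, lowest in control antibody mouse 15 (log2 fold change -1.27, standard error 0.40, unadjusted p = 0.00659, adjusted p = 0.471). The valve list summed to 40.6 to 62.1 CPM in the high and 30.2 to 76.0 CPM in the low hearts. Lung epithelial, thymocyte and fast skeletal muscle genes were all under the filter. Of the 6 lung genes 4 were at 0 in every heart, but Scgb1a1, the secretory protein of airway club cells, had 42 counts in control antibody mouse 15, 1 in 3D6 mouse 4 and 0 in the other 14 hearts. The lung list summed to 0.122 to 6.20 CPM in the high and 0 to 0.545 CPM in the low hearts. Atp2a1, the calcium pump of fast skeletal muscle, had 46, 9, 20, 14 and 5 counts in the high hearts and 0 to 4 in the low ones, and its list of 11 summed to 2.18 to 11.7 against 1.25 to 5.70 CPM. The thymocyte list of 8, with 3 at 0 in every heart, summed to 0.283 to 0.733 against 0.409 to 1.92 CPM. The part of these cells in the calls above was not tested. In bulk tissue, fewer cells of a type and less RNA per cell cannot be told apart.

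Fibroblast and matrix genes lay mostly above 0 without a call. Of 18 tested, 15 had a log2 fold change above 0 and 0 were called by edgeR, while 11 had an unadjusted p under 0.05. Over all genes tested 47.3% lay above 0 and 3.93% had an unadjusted p under 0.05. The median of the list was 0.33 beside -0.01 for all genes. Postn, the matricellular protein of activated fibroblasts, had a log2 fold change of 0.79, Col3a1 one of 0.57 and Fn1 one of 0.59. All had an adjusted p over the threshold. Other genes of the list were near 0 or below, Pdgfra with 0.003, Dpt with 0.04 and Tcf21 with -0.12. The summed level of the list was 2213 to 2455 CPM in the high and 1758 to 3023 CPM in the low hearts (medians 2245 and 2079), most of it from Gsn and Dcn, with log2 fold changes of -0.09 and -0.08. Without these 2 genes it was 955 to 1064 CPM (median 1008) in the high and 658 to 1011 CPM (median 825) in the low hearts. Among the 8 tested genes of the stress list, Ccn2, the connective tissue growth factor, was the 1 called. It was at 53.5, 32.9, 42, 36.5 and 30.8 CPM against 11.7 to 33.8 CPM, with 3D6 mice 20 and 21 inside the low range (log2 fold change 1.15, standard error 0.24, adjusted p = 0.0481). This call was lost in 16 of 27 alternatives, among them those without control antibody mice 3, 15 or 18 or 3D6 mice 4, 7, 12, 17, 20, 21 or 24, at log2 fold changes of 1.06 to 1.24. Macrophage genes gave 0 calls by edgeR among 12, with 1 at an unadjusted p under 0.05. The 3 tested platelet genes lay below 0, with a median of -1.35, 0 calls and 2 at an unadjusted p under 0.05.

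Of 18 tested ventricular identity genes 0 were called in either direction by edgeR, 1 had an unadjusted p under 0.05, and 16 had a log2 fold change below 0 with a median of -0.19. Without control antibody mouse 15 this was 11 of 18 with a median of -0.09. Myl2, the ventricular regulatory light chain, was at 3240, 4780, 2620, 3080 and 5210 CPM against 3120 to 7610 CPM with a median of 5513 (log2 fold change -0.46, standard error 0.26, adjusted p = 0.999). Myl3 had a log2 fold change of -0.24, Irx4 of -0.20 and Hey2 of -0.71, all with an adjusted p of 0.999. Myh6, the main myosin heavy chain of the mouse heart, was at 25200 to 27400 CPM in the high and 23800 to 29600 CPM in the low hearts (adjusted p = 0.999), with no stable sign over the alternatives. Myh7, the slow heavy chain, was at 56.6 to 221 CPM against 54.6 to 330 CPM. All 16 hearts thus held Myl2, which marks ventricular muscle, at 2620 CPM or more, while Myh6 is abundant in atria and ventricles of the mouse.

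Genes of energy metabolism lay mostly below 0, with 0 of 111 called by edgeR, glycolysis included, while 3 genes of the mitochondrial genome and 2 of fatty acid oxidation had an unadjusted p under 0.05. All 41 tested nuclear genes of the respiratory chain had a log2 fold change below 0, with a median of -0.22. So did the 13 genes of the mitochondrial genome, with a median of -0.21. Over all genes tested 52.7% lay below 0. The respiratory chain list summed to 17260 to 24730 CPM in the high and 17860 to 26940 CPM in the low hearts. The mitochondrial genome summed to 263100 to 342900 against 215000 to 395700 CPM, so that the groups overlapped in both lists. Of 18 TCA cycle genes 17 lay below 0 (median -0.12), and of 23 genes of fatty acid uptake and oxidation 22 (median -0.18). With scaling to total counts, which moved the median of all genes to 0.10, these were 37 of 41, 10 of 13, 10 of 18 and 17 of 23, and 14 of 16 glycolysis genes lay above 0, where TMM scaling put 6. When the mitochondrial share entered the fit as a covariate, 205 genes were called higher and 124 lower, and 14 of the lower calls were on the metabolism lists. In that fit 41 of 41 respiratory chain genes lay below 0, 20 of 23 fatty acid genes and 10 of 18 of the TCA cycle. Of the mitochondrial genome 9 of 13 genes did. The covariate is the share of counts on that same genome, so the fit removes beforehand part of any shift its genes have in common. The 9 of 13 therefore cannot say whether their sign holds.

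**Figure D4:**
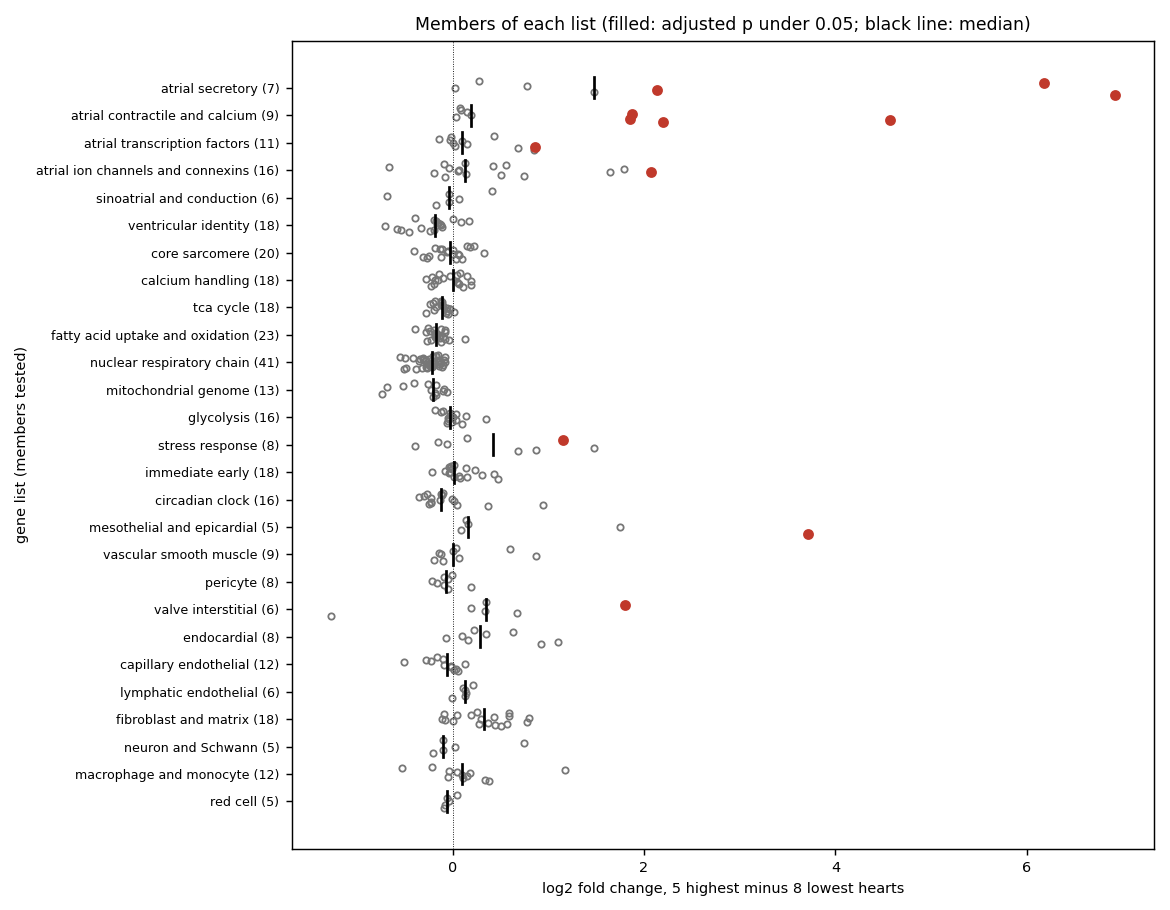
Log2 fold change (x axis, 5 highest minus 8 lowest hearts) of each tested member of the gene lists (y axis, with the number tested), with a filled red mark for an adjusted p under 0.05 and a black line at the median. Filled marks stand in the 4 atrial lists above the sinoatrial list and singly in the stress, mesothelial and valve lists. The mesothelial mark is Upk3b, which passed the filter only through the high hearts and is given with no test. The respiratory chain and mitochondrial genome lie wholly left of 0.

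The 1 gene called lower was A930016O22Rik, an antisense gene on the minus strand of chromosome 7 (19417466 to 19421417). It was at 3.77, 6.75, 6.65, 4.52 and 2.76 CPM in the high hearts and at 5.48 to 26.5 CPM with a median of 11.9 in the low hearts (log2 fold change -1.66, standard error 0.31, adjusted p = 0.0232). The groups overlapped in 2 high hearts, and its reads carry the same doubt about strand as those of Gm13054. Its log2 fold change was -1.74 without control antibody mouse 15 (adjusted p = 0.184), -1.34 without 3D6 mouse 24 (adjusted p = 0.109) and -1.60 without 3D6 mouse 12 (adjusted p = 0.0646), and it was called without any other single heart. Among the genes called higher that the rule did not name, Gpx3, an extracellular glutathione peroxidase, was at 984, 379, 306, 222 and 229 CPM against 134 to 219 CPM (log2 fold change 1.59, adjusted p = 0.00349). C4b, a complement component, was at 28.3, 21, 20.1, 10.9 and 17.6 CPM against 5.92 to 12.4 CPM, with overlap in 3D6 mouse 12 (log2 fold change 1.19, adjusted p = 0.0272), though it has a near-identical copy, C4a, between which reads may be split. Both were singled out after their values were seen, and neither was called without control antibody mouse 15, when the log2 fold change was 1.01 for Gpx3 and 1.02 for C4b. C4b was not called without 3D6 mice 4, 7, 17 or 20 either, at log2 fold changes of 1.10 to 1.19.

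When the score was used as a slope over all 16 hearts in place of groups, 88 genes rose with it (0.725%) and 2 fell (0.0165%). The slope is the change in log2 level for 1 unit of score. It was 1.09 for Nppa (adjusted p = 1.4e-06), 1.00 for Dkk3 (adjusted p = 1.18e-11), 0.83 for Sbk3 (adjusted p = 4.02e-06) and 0.38 for Pam (adjusted p = 4.98e-05). Without control antibody mouse 15, 16 genes rose. This slope shares all its hearts with the comparison of groups and is no second test of it.

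The 14 hearts of the peptide study share no sample with the antibody study. Scored in the same way they ran from 0.659 to 9.60, a range that reached higher than that of the antibody hearts. Their table was counted and fitted apart with the peptide as a covariate, and 1566 of 11966 genes rose with the score (13.1%) and 943 fell (7.88%). Total count scaling gave 3322 and 258. The counts were 742 and 213 without the ScrAβ42 heart of the highest score, and 930 and 387 without the Aβ42 heart ranked next to the top. Of the 51 genes called higher in the antibody hearts 50 were tested there, and all of them rose with the score there. Of the 36 genes that averaged 10 or more counts in the low antibody hearts, 36 rose, as they did with total count scaling and with DESeq2, and 35 or 36 rose when 1 heart was left out. All 50 genes, 14 of which averaged under 10 counts in the low antibody hearts, were 3.62% of 1383 genes. These 1383 genes rose in the peptide hearts and were tested in the antibody hearts, where 78.7% of them had a log2 fold change above 0. Of 925 genes that fell in the peptide hearts and were tested, 83.9% lay below 0 in the antibody hearts, where 52.7% of all genes did, and 0 were called lower by edgeR.

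In the peptide hearts the slope was 0.87 for Nppa (standard error 0.08, adjusted p = 2.23e-06) and 0.89 for Dkk3 (standard error 0.07, adjusted p = 6.74e-07). It was 0.33 for Pam, 0.64 for Sbk3, 0.45 for Sbk2 and 0.56 for Cacna1h. Among the 21 called genes named, the smallest was that of Nr2f2, 0.09 (standard error 0.03, adjusted p = 0.0258). Nppb had a slope of 0.07 (adjusted p = 0.375). Gja5 (0.33, adjusted p = 0.00207), Tbx5 (0.28, adjusted p = 1.38e-05) and Kcnj3 (0.28, adjusted p = 2.16e-05) rose there. Of the ventricular list 8 of 18 genes fell with the score in the peptide hearts, Myl2 with a slope of -0.14 (adjusted p = 0.0459), and 37 of 41 respiratory chain genes, 14 of 18 TCA cycle genes and 18 of 23 fatty acid genes fell. Of the fibroblast and matrix list 17 of 18 rose, and of the macrophage list 10 of 10 tested. Total count scaling left 15 respiratory chain, 8 TCA cycle and 9 fatty acid genes that fell. Without the ScrAβ42 heart of the highest score 3, 0 and 4 fell, as did 1 ventricular gene, while 10 fibroblast and 2 macrophage genes rose. Without the Aβ42 heart ranked next to the top 20 respiratory chain, 7 TCA cycle and 9 fatty acid genes fell, and without the Aβ42 heart of the lowest score 22 respiratory chain, 9 TCA cycle and 5 ventricular genes fell.

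**Figure D5:**
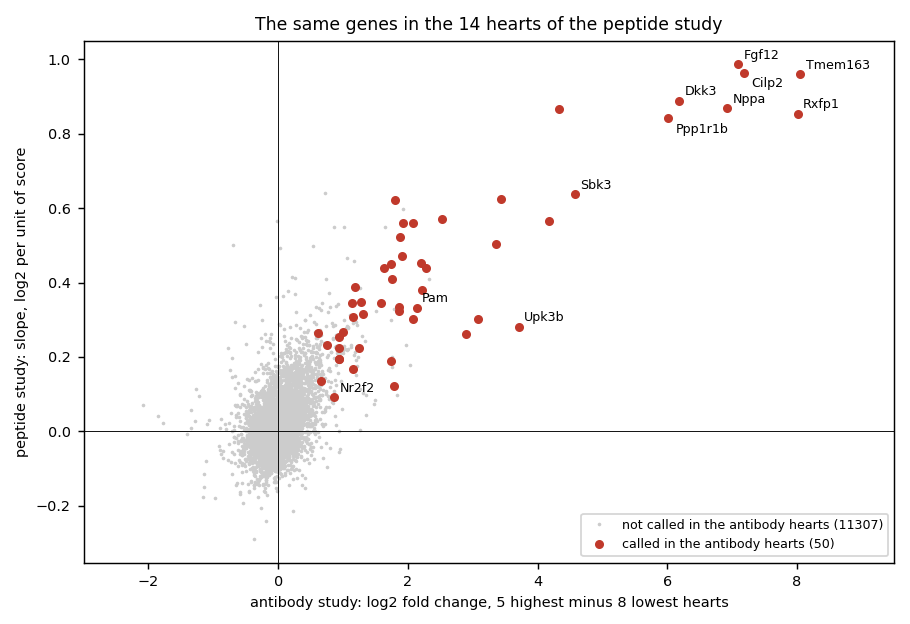
Log2 fold change in the antibody study (x axis, 5 highest minus 8 lowest hearts) against the slope on the score in the 14 hearts of the peptide study (y axis, log2 per unit of score), for the 11357 genes tested in both. The 50 genes called in the antibody hearts, in red, were all called higher there, so their place right of 0 was fixed by the choice. All 50 lie above 0 on the y axis. Of these, 14 averaged under 10 counts in the low antibody hearts and passed the filter only through the high hearts.

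With the score group in the fit, 3D6 against the control antibody gave 0 called genes (0%) by edgeR in the 13 hearts, 486 genes with an unadjusted p under 0.05 and a smallest adjusted p of 0.0761. Without the score group it also gave 0 (0%), with 461 at an unadjusted p under 0.05. DESeq2 called 12 genes with the score group in the fit.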

How the data were processed

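Left ventricular RNA of 16 mice of the antibody study and 14 of the peptide study was sequenced from total RNA with a stranded kit. The authors trimmed the reads and used Salmon to assign them to mouse GENCODE transcripts (GRCm38, per the labels), without a version of Salmon given in the sources used here. The deposited values of the antibody study are estimated counts per transcript, and those of the peptide study are whole counts per gene. Estimated counts were summed to genes by the identifiers of a GENCODE annotation of the same build, which listed 99.2% of the transcripts (the others held 0.381% of counts), and rounded. Of the peptide study 1 column matched no sample and was not used. Total counts were 6397192 to 8310478 per antibody heart, and intervals on counts cover counting error only.

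Genes averaging 10 or more counts were fitted in edgeR 4.0.16 (R 4.3.3) with TMM scaling, the quasi-likelihood test and Benjamini-Hochberg adjustment over all 12146 genes, score genes included, with the antibody as covariate. The score used log2(CPM + 1) from column totals. Slopes on the score were fitted in the 16 antibody hearts and, apart, in the 14 peptide hearts (11971 genes). DESeq2 1.42.0, limma 3.58.1 (voom), other scalings, filters, covariates and group sizes, and leaving out each heart were the alternatives. Leaving Bmp10 out of the score, and sums of lists without C3 or without Gsn and Dcn, were added after seeing the data. Exact tests over hearts used scipy 1.17.1. Promoters came from RefSeq (GRCm38.p6), and 33 of the 51 genes called higher matched.

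The hearts and gene lists were chosen with earlier results of these data known. Named genes were the 12 higher and 12 lower called protein-coding genes with the smallest p (0 protein-coding genes were called lower), the called members of the lists, and members with a defining role. The result of 1 gene is not reported here.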

Additional observations from a re-analysis of the deposited data

Results flagged for a closer look

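Of 76 sets of values in the high or the low hearts, 23 held 1 heart that stood apart from the others by the gap to its nearest neighbour. The limit used marks about 5% of sets of normally distributed values. CPM values are not distributed so, and the number of sets marked is a description. In 16 of the 17 in the high hearts this was control antibody mouse 15, and these genes are not independent of each other. This mouse had the highest score, and most of these genes were called for following the score. Its place apart from the others therefore follows in part from how the hearts and genes were chosen. Its CPM beside the range of the other 4 high hearts was 3820 against 140 to 909 for Nppa, 2500 against 411 to 907 for Pam, 190 against 14 to 62.2 for Dkk3, and 240 against 13.4 to 44.8 for Sbk3. It was 77.8 against 8.57 to 21.1 for Sbk2, 238 against 29.5 to 65.6 for Stard10, 47.7 against 3.78 to 13.3 for Gja5, and 34.6 against 14.9 to 16.1 for Nr2f2. It was 73.1 against 2.91 to 11.7 for Cilp2, 41.2 against 1.16 to 9.48 for Fgf12, 38.1 against 2.18 to 5.74 for Ppp1r1b, and 26.1 against 0.727 to 5.62 for Adcy1. It was 69.1 against 16.1 to 25 for Tbc1d1, 40.6 against 2.33 to 9.05 for Plekha7, 16.8 against 1.10 to 5.07 for Upk3b, and 11.1 against 3.17 to 3.40 for Comp. The remaining value was the total count of 3D6 mouse 12, 8310478 against 6807977 to 6948533.

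In the low hearts Nppa was at 80.9 CPM in control antibody mouse 23, with the other 7 hearts at 0.961 to 25.1. Control antibody mouse 22 stood apart in Sbk3, with 8.40 CPM against 0.274 to 4, and in Tmem163, with 0.57 CPM (4 counts) against 0 to 0.156. Dkk3 was at 3.37 CPM in control antibody mouse 8 against 0.32 to 1.64, and Rxfp1 at 0.137 CPM, a single count, in control antibody mouse 18 against 0 in the others. Kcna5 was at 22.5 CPM in control antibody mouse 18 against 13.5 to 17.1.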

How the results depend on the processing

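The 51 genes called higher, 15 of which passed the filter only through the high hearts, kept a log2 fold change above 0 in every alternative in which they were tested, and no called value changed its sign (of 878 values of named genes 773 stayed on the same side of the threshold, 98 lost and 7 gained a call). Among the genes not called, 21 values of 4 genes took the other sign, 11 for Myh6, 4 for Kcna5, 3 for Myh7 and 3 for Hcn4. The numbers of calls moved more, and the cause was not tested where fewer hearts or genes do not give it. Against 52 genes called (51 higher, 1 lower), DESeq2 gave 80 (6 lower), no filter on low counts 118 (115 higher, 3 lower), at least 10 counts in every heart 21 (20 higher), no antibody covariate 20 (20 higher, 0 lower), 5 against 5 hearts 29 (29 higher, 0 lower), the 3D6 hearts alone 5 (5 higher, 0 lower), the mitochondrial share as covariate 329 (205 higher, 124 lower), and voom 0 lower. Leaving out 1 heart gave 7 to 55 in all, 7 to 54 higher and 0 to 1 lower, the 7 without control antibody mouse 15, where in effect only the 3D6 hearts are compared. Atrial list calls (9) became 4 with voom, 15 without filter, 5 with at least 10 counts in every heart, 5 without covariate, 14 with the mitochondrial share, 5 with 5 against 5, 2 in 3D6 hearts and 2 to 9 leaving out 1 heart. Other cell calls were 2, Comp and Upk3b, the second of which is given with no test. They became 4 with DESeq2, 1 with voom, 11 without filter, 0 with at least 10 counts in every heart and 0 without covariate. They were 9 with the mitochondrial share, 1 with 4 against 8, 1 with 5 against 5, 0 in 3D6 hearts and 0 to 2 leaving out 1 heart. The stress call of Ccn2 (1) became 0 with voom, at least 10 counts in every heart, no covariate, 4 against 8, 5 against 5 and 3D6 hearts, and 0 to 1 leaving out 1 heart. The mitochondrial share gave 14 metabolism and 1 ventricular call lower, and 2 muscle calls higher and 2 lower, all 0 before.

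The slope in 16 hearts (88 higher, 2 lower) gave 142 higher and 1 lower with total count scaling, 4 lower with DESeq2, and 16 to 103 higher and 0 to 4 lower leaving out 1 heart. In the peptide hearts (1566 higher, 943 lower) total count scaling gave 3322 and 258, and leaving out 1 heart 742 to 1689 and 213 to 1185, with 742 and 213 without the ScrAβ42 heart of the highest score and 930 and 387 without the Aβ42 heart next to the top of the scores. The antibody effect (0) was 12 with DESeq2. No paired analysis was possible because the groups share no replicate numbers. A comparison within control antibody hearts could not be fitted, with 1 high heart. Genes near 0 in the low hearts rest on few counts there, so their folds are imprecise.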

Other observations

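These genes were chosen after their values were seen. Arsk, a sulfatase of the lysosome, was at 0.135 CPM in control antibody mouse 15 and 3.05 to 4.40 CPM in the other high hearts. In the low hearts it was at 0 in 3D6 mice 24, 4 and 17 and at 2.47 to 5.57 CPM in the 5 control antibody mice. The 3 low 3D6 hearts, all at 0, are the low hearts that remain in the comparison without control antibody mouse 15.

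The share of Tpm2 counts, a tropomyosin gene, that fell on the transcript ENSMUST00000107914 was 7.79, 18.5, 18.3, 45.1 and 71.0% in the high hearts in the order of the score. It was 43.3 to 91.1% with a median of 74.2% in the low hearts. Tpm2 itself was at 90, 45.4, 32.5, 24.9 and 27.6 CPM in the high hearts and at 12.0 to 37.1 CPM with a median of 21.1 in the low hearts, with 3 high hearts inside the low range. Its call (log2 fold change 1.30, adjusted p = 0.0257 by edgeR) was lost without control antibody mouse 15 (0.95) or 23 (1.28) and without 3D6 mouse 20 (1.23) or 4 (1.25). Shares of transcripts are estimates of the mapping, and reads shared by transcripts can be assigned either way.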
